A study of Homo sapiens with 6 samples.

Results

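The genes described here encode the core switch of the G1 phase of the cell cycle, with the D cyclins CCND1, CCND2 and CCND3, the E cyclins CCNE1 and CCNE2, the kinases CDK4, CDK6 and CDK2, the inhibitor CDKN1B (p27) and the pocket protein RB1. They were chosen by symbol as a functional group, with earlier results of these data known. Their share of calls beside that of other genes is therefore a description. All 10 were measured, among 33616 genes with 1 symbol. Where a gene had several rows, the brightest on average was kept. Gene-level RNA had been measured on whole-transcript arrays in H295R, a human adrenocortical cancer cell line that makes steroid hormones. The cells were given 5 µM CX-4945 or its solvent DMSO for 24 h, with 3 arrays per group. CX-4945 (silmitasertib) is an inhibitor of the protein kinase CK2 that is also known to inhibit CLK kinases. Both groups are the same cell line. The labels do not say whether the replicates were grown separately, and p-values here reflect the scatter of these 6 samples alone, possibly a technical one.

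D cyclins are made in response to growth signals and activate CDK4 and CDK6, which begin to phosphorylate RB1. RB1 in its unphosphorylated form holds back E2F transcription factors, and once it is phosphorylated E2F drives the genes of S phase, the E cyclins among them. Cyclin E with CDK2 then completes the phosphorylation of RB1, while p27 blocks cyclin E with CDK2 until it is degraded. Much of this control lies in phosphorylation and protein turnover, which arrays of RNA do not measure.

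The RNA of most of these genes was lower with CX-4945, and that of CCND1 was higher. In a limma fit over all genes, 7 of the 10 fell and 1 rose at an adjusted p under 0.05, while CCND3 and CDK4 did not pass. Over all 33616 genes, 22.8% passed, with 12.5% lower and 10.3% higher. The members are nearly all well expressed, so a closer background is the 17337 genes above the signal of silent genes in at least 1 group. Of those 39.2% passed, with 22.0% lower and 17.2% higher. The median log2 difference, CX-4945 minus DMSO, was -0.82 over the 10 genes, against 0.02 over all genes. The groups did not overlap in 9 of the 10 genes, as was also the case in 36.0% of all genes. Among the 17337 genes of the closer background, 4320 had groups apart and higher with CX-4945, and 4981 apart and lower. An exact permutation of 3 against 3 arrays cannot give a p below 0.1, the value it gave for each of those 9 genes.

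**Figure D1:**
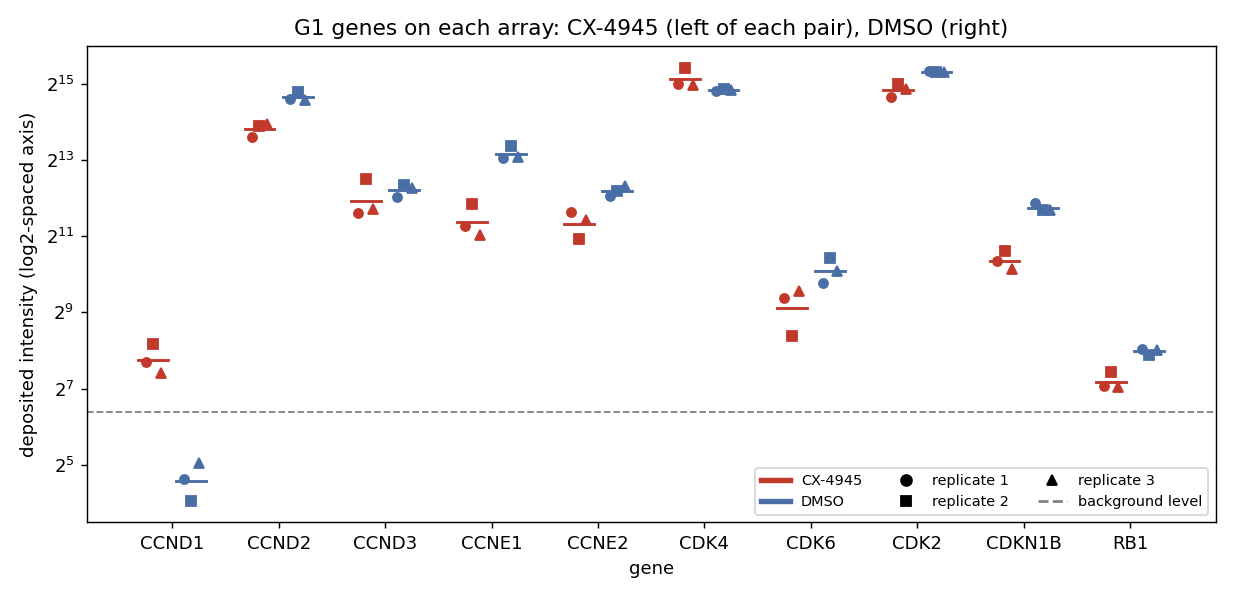
Deposited intensity of each gene on each array (axis spaced in log2), with CX-4945 left of DMSO. Symbols are replicates, short lines the mean of the log2 values (n = 3 each), and the dashed line the background level. CCND1 lay below that line on the 3 DMSO arrays and above it on the 3 CX-4945 arrays, whereas the other 9 genes lay above it on all arrays.

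As a whole, the arrays had median intensities of 45.8 to 46.5 with CX-4945 and 40.7 to 43.1 with DMSO. CX-4945 replicate 2 stood apart, with a correlation over genes of 0.988 and 0.990 with the other treated arrays, which correlated with each other at 0.994. Silent genes were represented by 374 olfactory receptor genes, whose 95th percentile of mean levels, a log2 intensity of 6.40, is called the background level here. The cell line's own marker list was visible, with 7 of 9 adrenocortical markers above background, but the marker genes INHA and MC2R were not. The summed intensity of that list was 66032 to 97531 with CX-4945 and 292246 to 337185 with DMSO. Most of this sum came from SCARB1, the brightest of the list (log2 level 15.88 with CX-4945 and 17.83 with DMSO). Of the 9 markers 6 fell, and 1, CYP21A2, rose (log2 difference 0.83, limma adjusted p = 0.0167). Endothelial markers (1 of 5 above background), adrenomedullary markers (0 of 4), fibroblast markers (3 of 5) and immune markers (2 of 6) were also read. Of these 20 genes, DCN, CD14 and CD68 passed the test, all higher with CX-4945, CD14 lying below background with DMSO and CD68 in both groups. The immune marker PTPRC lay below background in both groups as well. CD3E lay above it in both (log2 level 6.54 with CX-4945 and 6.95 with DMSO). So did the fibroblast markers COL1A1 (10.91 and 11.13) and COL1A2 (8.07 and 8.35). The part of the marker shifts in the results below was not tested. Fewer cells in the phase that uses a gene and less RNA per cell cannot be told apart in such bulk samples.

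CCND1, cyclin D1, was the one gene of the group that rose. Its intensities were 208, 288 and 168 with CX-4945 and 24.8, 16.7 and 32.8 with DMSO. Every treated value lay above every DMSO value, and the DMSO values all lay below the background level. The log2 level was 7.76 ± 0.39 with CX-4945 and 4.58 ± 0.49 with DMSO (SD, n = 3 each), a log2 difference of 3.18 ± 0.28 (SE; limma adjusted p = 4.31e-06). That is 9.06-fold as measured. The 95th percentile of the olfactory receptor genes was an intensity of 81.9 to 100.02 on the CX-4945 arrays and 82.0 to 103 on the DMSO arrays. The DMSO level of CCND1 is therefore only bounded from above, and set against that background on each DMSO array the rise was at least 2.40-fold. CCND1 passed in all 16 alternatives that tested it (log2 difference 2.92 to 3.41). The 17th, a filter at the median gene level, removed it.

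Among 17569 other protein-coding genes, the 3 whose log2 values followed CCND1 most closely over the 6 arrays were EEF1A1 (Pearson r = 0.999), LMX1B (0.997) and NR4A1 (0.995). These values mostly reflect the step between 2 groups of 3 arrays, and the DMSO values of CCND1 that enter them lie below background, so they are given as a description only. EEF1A1, a translation elongation factor, had a log2 difference of only 0.30, LMX1B, a homeobox factor, one of 1.02, and NR4A1, an orphan nuclear receptor, one of 1.50. EEF1A1 has many near-identical copies in the genome, so its signal may be shared.

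CCND2, cyclin D2, moved the other way. Its intensities were 12409, 15219.6 and 15577 with CX-4945 and 24825, 28130.2 and 24309 with DMSO, with no overlap of the groups. The log2 difference was -0.84 ± 0.14 (SE; adjusted p = 6.78e-04), or 1.79-fold lower. The fall passed in all 17 alternatives (-0.98 to -0.74). Separate rows for the antisense RNAs of this locus and for its pseudogene were dim, with a log2 level of 5.71 with CX-4945 and 5.92 with DMSO for CCND2-AS1, 4.88 and 4.68 for CCND2-AS2, and 4.24 and 4.34 for CCND2P1, all below background.

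CCND3, cyclin D3, did not pass. Its intensities were 3105, 5736 and 3353 with CX-4945 and 4148, 5149 and 4913 with DMSO. CX-4945 replicate 2 lay above all DMSO arrays and the other 2 treated arrays lay below them. The log2 difference was -0.27 with a 95% interval of -0.75 to 0.21 (adjusted p = 0.464). Without CX-4945 replicate 2 it was -0.55 and passed (adjusted p = 0.0102), so the call turns on that array. No other alternative brought the adjusted p under 0.05. A second row named CCND3 was dim in both groups (log2 level 3.79 with CX-4945 and 4.21 with DMSO) and was not used.

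Whether the D cyclins changed by unequal amounts was tested within arrays. The log2 difference between CCND1 and CCND2 shifted by 4.02 with CX-4945, that between CCND1 and CCND3 by 3.45, and that between CCND2 and CCND3 by -0.57. For each of these 3 pairs no CX-4945 array overlapped a DMSO array (exact permutation p = 0.1, the lowest possible; 0.125 after Benjamini-Hochberg adjustment over the 5 pairs compared, two-sided). Both shifts with CCND1 rest on its DMSO values below background and are only bounded. With those values raised to the background of each DMSO array, the shift was at least 2.10 against CCND2 and at least 1.53 against CCND3, again without overlap (exact permutation p = 0.1 for both). Without CX-4945 replicate 2 the shift between CCND2 and CCND3 was -0.34. Levels of different genes were not compared with each other, since rows of an array have unequal brightness.

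**Figure D2:**
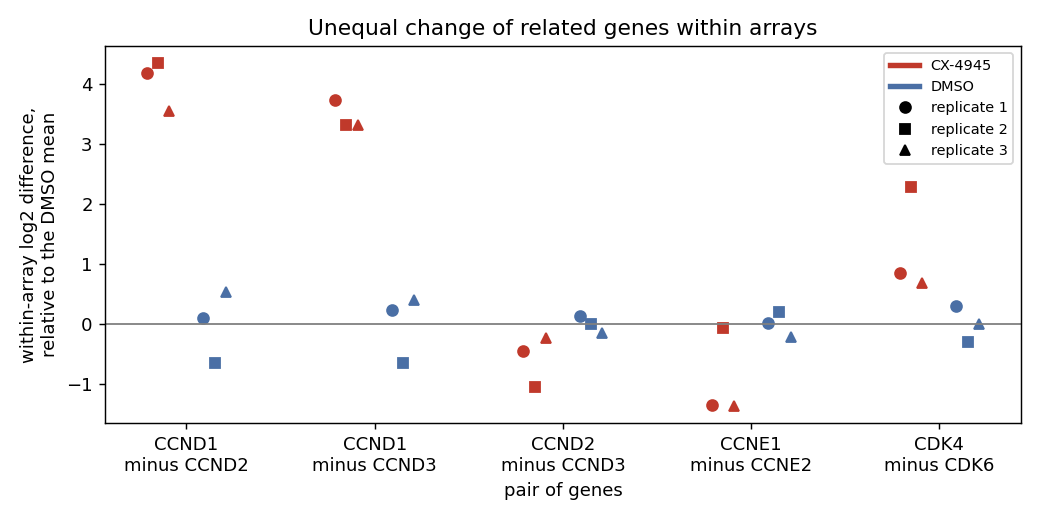
Log2 difference between related genes within each array, shown relative to its DMSO mean, with CX-4945 left of DMSO and symbols for replicates. Treated and DMSO arrays were apart for 4 of the 5 pairs, and for CCNE1 minus CCNE2 the value of CX-4945 replicate 2 (-0.06) lay among the DMSO values.

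CCNE1, cyclin E1, had the deepest fall of the 10 genes. Its intensities were 2450.1, 3669 and 2081 with CX-4945 and 8408, 10442 and 8691.5 with DMSO. All treated arrays lay far below all DMSO arrays. The log2 level was 11.37 ± 0.42 with CX-4945 and 13.16 ± 0.17 with DMSO (SD, n = 3 each), a log2 difference of -1.78 ± 0.21 (SE; adjusted p = 4.12e-05), or 3.44-fold lower. All 17 alternatives kept the call, with log2 differences of -2.02 to -1.61. The window around the RefSeq start of CCNE1 (GRCh38.p14, chr19:29811741-29812040, plus strand) is shown because this gene changed most among those that fell. It runs 5′ to 3′ from 250 bases before the start to 50 bases after it, and capitals mark GC boxes (GGGCGG on either strand, the motif of SP1), of which there are 7.
CCNE1: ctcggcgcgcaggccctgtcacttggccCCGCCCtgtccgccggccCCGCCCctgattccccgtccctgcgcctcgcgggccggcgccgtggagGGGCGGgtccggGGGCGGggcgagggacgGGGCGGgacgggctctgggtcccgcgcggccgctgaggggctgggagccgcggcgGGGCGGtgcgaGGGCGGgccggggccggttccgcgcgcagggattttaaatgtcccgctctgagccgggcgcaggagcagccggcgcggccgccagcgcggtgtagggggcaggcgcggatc

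CCNE2, cyclin E2, also fell, by less as measured. Its intensities were 3176, 1943 and 2721 with CX-4945 and 4238, 4622 and 5120.4 with DMSO, again without overlap. CX-4945 minus DMSO, the log2 difference came to -0.86 ± 0.19 (SE; adjusted p = 0.00603), or 1.81-fold lower. CX-4945 replicate 2 had the lowest CCNE2 value of the treated arrays and the highest CCNE1 value. The log2 difference between CCNE1 and CCNE2 accordingly spread widely over the treated arrays. It shifted by -0.92, with an SD of 0.75 with CX-4945 and 0.21 with DMSO, and the groups overlapped (exact permutation p = 0.2, also 0.2 after adjustment over 5 pairs). Without CX-4945 replicate 2 the shift was -1.36 and the groups did not overlap. Whether CCNE1 fell further than CCNE2 was therefore not settled by these 6 arrays. With a lowest possible p of 0.1, this test could not settle any of the 5 pairs.

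CDK4, a partner kinase of the D cyclins, did not pass. Its intensities were 32608.5, 43835 and 32099 with CX-4945 and 28813, 29787 and 28987 with DMSO. All treated values were above all DMSO values. The SD of the log2 values was 0.25 with CX-4945 and 0.03 with DMSO (n = 3 each). The log2 difference was 0.29 with a 95% interval of -0.01 to 0.60 (adjusted p = 0.171), and no alternative of 17 brought it past the threshold (0.15 to 0.37). The lowest of these, 0.15, was without CX-4945 replicate 2 (adjusted p = 0.287). The window around its RefSeq start (GRCh38.p14, chr12:57752261-57752560, minus strand) is shown for comparison with genes that fell. Capitals mark E-boxes (CACGTG, the motif of MYC and related factors), of which there are 3.
CDK4: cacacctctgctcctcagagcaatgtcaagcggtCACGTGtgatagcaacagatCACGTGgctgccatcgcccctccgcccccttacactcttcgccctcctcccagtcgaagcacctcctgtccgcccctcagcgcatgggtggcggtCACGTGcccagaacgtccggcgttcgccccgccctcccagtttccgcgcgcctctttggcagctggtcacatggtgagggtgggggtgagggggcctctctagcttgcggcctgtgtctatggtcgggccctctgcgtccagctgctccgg

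CDK6, the other partner of the D cyclins, fell. Its intensities were 669.6, 334 and 748 with CX-4945 and 869, 1369.6 and 1083 with DMSO. The groups did not overlap, though the highest treated and the lowest DMSO value were close. The fall was 1.97-fold, a log2 difference of -0.98 ± 0.29 (SE; adjusted p = 0.0273). The call was lost without DMSO replicate 2 (log2 difference -0.82, adjusted p = 0.131) and without DMSO replicate 3 (-0.98, 0.0766). Without CX-4945 replicate 2 the log2 difference was -0.62 (0.0354), and over all alternatives the adjusted p was 0.00800 to 0.231. The log2 difference between CDK4 and CDK6 shifted by 1.28 with no overlap of the arrays (exact permutation p = 0.1, adjusted 0.125 over 5 pairs), and by 0.77 without CX-4945 replicate 2, which stood 2.29 above the DMSO mean, against 0.86 and 0.68 on replicates 1 and 3.

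CDK2, the partner of cyclin E, had the smallest of the falls that passed. Its intensities were 25836, 32278 and 29776 with CX-4945 and 41254, 40594 and 40571 with DMSO. The DMSO values were almost equal and lay above all treated values. It fell 1.40-fold, a log2 difference of -0.48 ± 0.12 (SE; adjusted p = 0.0125). Without CX-4945 replicate 1 (adjusted p = 0.0518), DMSO replicate 1 (0.0552) or DMSO replicate 2 (0.0553) it did not pass, while the log2 difference stayed between -0.62 and -0.40 over all alternatives (adjusted p 6.52e-04 to 0.226).

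CDKN1B, the inhibitor p27 of cyclin E with CDK2, fell as well. Its intensities were 1296, 1548 and 1118 with CX-4945 and 3723, 3299 and 3296 with DMSO. The lowest DMSO value was above every treated one. The log2 level was 10.35 ± 0.23 with CX-4945 and 11.75 ± 0.10 with DMSO (SD, n = 3 each), a log2 difference of -1.39 ± 0.18 (SE; adjusted p = 8.22e-05), or 2.62-fold lower. It passed in all 17 alternatives (-1.52 to -1.28). The window around its RefSeq start (GRCh38.p14, chr12:12717118-12717417, plus strand) is shown as that of the second deepest fall. Capitals mark CCAAT boxes on either strand, the motif of NF-Y, of which there are 3.
CDKN1B: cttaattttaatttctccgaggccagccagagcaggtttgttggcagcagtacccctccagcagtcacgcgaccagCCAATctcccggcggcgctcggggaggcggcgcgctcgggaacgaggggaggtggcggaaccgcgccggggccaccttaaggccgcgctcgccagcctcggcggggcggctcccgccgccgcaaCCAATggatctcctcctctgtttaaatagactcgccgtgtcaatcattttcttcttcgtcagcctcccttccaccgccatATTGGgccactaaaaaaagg

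RB1, the pocket protein that the cyclin-dependent kinases phosphorylate, fell at a level not far above background. Its intensities were 134, 171 and 131 with CX-4945 and 262, 238 and 257 with DMSO, without overlap. All 6 lay above the background level, the treated ones by less. The log2 difference was -0.81 ± 0.20 (SE; adjusted p = 0.0100), or 1.75-fold lower.

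**Figure D3:**
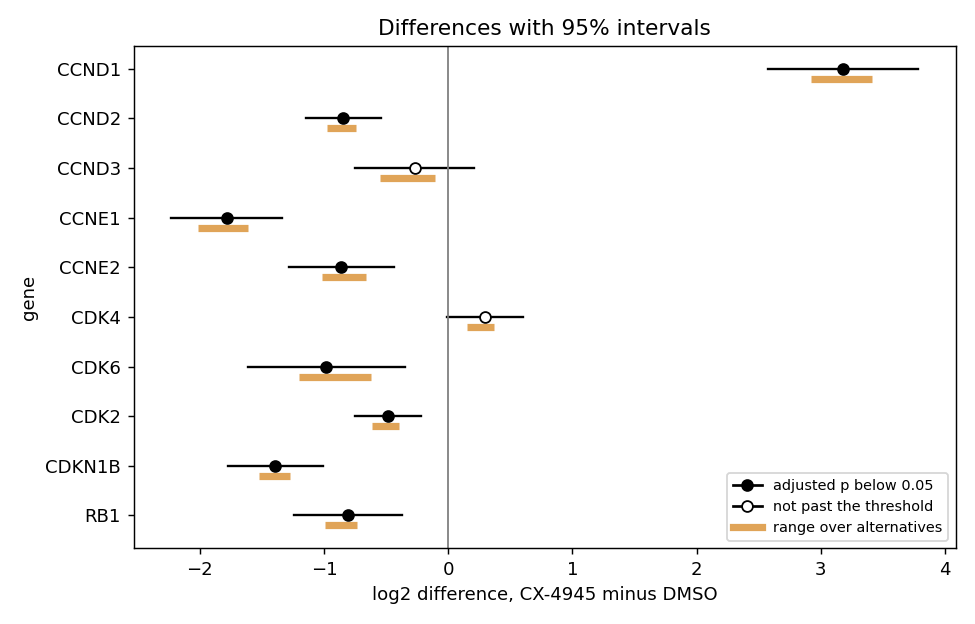
Log2 difference, CX-4945 minus DMSO, of each gene with its 95% interval from the limma fit (black) and its range over the alternative settings (orange bar). CCND1 stands alone on the right at 3.18, CCND3 and CDK4 (open circles) did not pass, and the other 7 genes lie between -1.78 and -0.48.

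CX-4945 replicate 2, the array that stood apart over all genes, held the highest treated value in 7 of the 10 genes. It held the lowest in 2, CCNE2 and CDK6. Its largest deviations from the treated mean were -0.72 in CDK6, 0.55 in CCND3 and 0.47 in CCNE1 on the log2 scale. The same counts over all genes were not made, so whether this is particular to the 10 genes was not tested. The median SD over the 10 genes was 0.31 with CX-4945 and 0.13 with DMSO, against 0.23 with CX-4945 and 0.18 with DMSO over all genes. The direction of each of the 10 differences was the same without replicate 2, and 9 genes passed in place of 8.

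**Figure D4:**
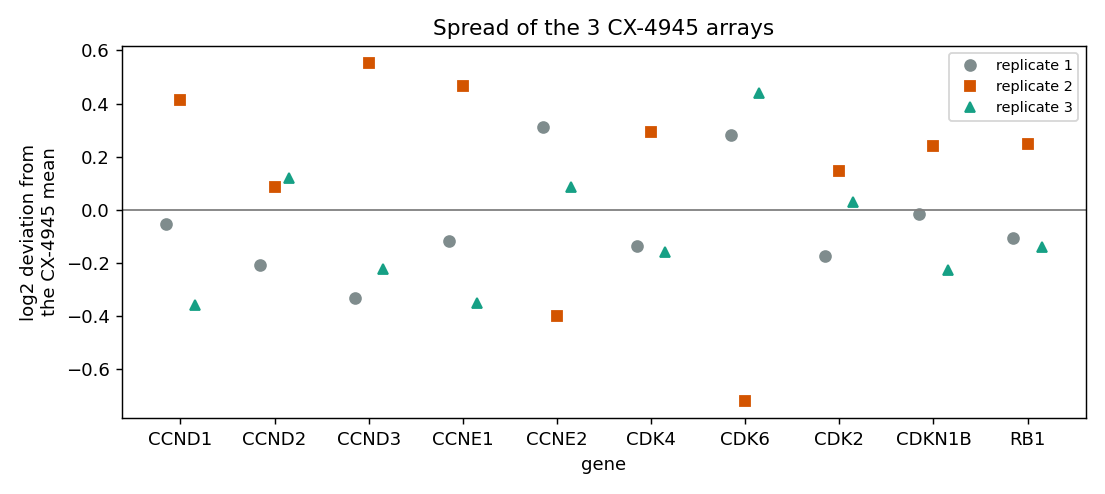
Log2 deviation of the 3 CX-4945 arrays from their mean, for each gene, with a symbol per replicate. Replicate 2 lies at the top in 7 genes and at the bottom in CCNE2 and CDK6.

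RefSeq promoter windows of 300 bases matched 6 of the 10 genes, with 9 windows in all because CCND3 and CDK6 have several starts. No window was available for CCND1, CCND2, CCNE2 and CDK2, so their promoters were not searched for any motif. The motif of E2F, searched as TTTNNCGC on both strands, was in none of the 9 windows and in 6.9% of all 35116 windows. At that share, 9 windows are too few for the lack of a match to say anything, and only this spelling was searched. E-boxes were in the CDK4 window printed above and in 1 CDK6 window, against 7.3% of all windows. GC boxes, found in 45.0% of all windows, were in those of CCNE1, CDK4 and CDKN1B and in 2 of CCND3 and 1 of CDK6. CCAAT boxes, found in 34.6%, were in that of CDKN1B and in 2 of the 3 of CCND3. The RB1 window held 1 AP-1 motif (TGANTCA), found in 7.7% of all windows, and the other 8 held none. That window belongs to a start 172699 bases downstream of the 5′ end of the RB1 gene in RefSeq, so the promoter at the 5′ end was not searched here. The 2 CCND3 windows with a CCAAT box likewise belong to starts 108227 and 110830 bases downstream of the 5′ end of that gene. Matches of different motifs overlapped in 0 places in these windows. Such matches are letters in a window and no evidence of binding.

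Genes around the group were read from 8 lists, in which 41.7% to 73.7% of the genes passed in either direction. That compares with 22.8% of all genes and 39.2% of those above background. The lists too were chosen with earlier results of these data known, so these shares are a description. Other inhibitors of cyclin-dependent kinases also fell or did not pass. Of 6 measured, 3 fell and 0 rose, with a median log2 difference of -0.35. CDKN1A (p21), which acts like p27 on cyclin E with CDK2, fell 2.54-fold (log2 difference -1.35 ± 0.19 SE, adjusted p = 1.93e-04). CDKN2A, which encodes the CDK4 and CDK6 inhibitor p16 and the separate protein ARF, fell 2.20-fold, and the phosphatase CDKN3 1.52-fold. The row of CDKN2A gives 1 level for both of its products. CDKN1C (log2 difference 0.12), CDKN2B (0.12) and CDKN2D (-0.10) did not pass, the last 2 lying below background.

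Among 12 pocket proteins, E2F factors and their DP partners other than RB1, 4 fell and 1 rose, with a median log2 difference of -0.52. All 12 lay above background, and the 41.7% of them that passed is near the 39.2% of all such genes (22.0% lower and 17.2% higher). RBL2 (p130), a relative of RB1 that acts in resting cells, fell 2.52-fold, and E2F5, a repressive E2F that binds it, 3.25-fold. E2F3, an activating E2F, fell 1.59-fold and E2F8, an atypical repressor, 1.89-fold. The other atypical repressor, E2F7, rose 2.06-fold. RBL1 (p107) had a log2 difference of 0.41, E2F1 one of -0.53 and TFDP1 one of -0.11, none of which passed. Without CX-4945 replicate 2, 9 of these 12 genes passed.

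Of 12 genes of the ubiquitin ligases that degrade G1 cyclins and p27, 4 fell and 2 rose (median log2 difference -0.40). All 12 lay above background, and 50% of them passed, against 39.2% of all such genes (22.0% lower and 17.2% higher). FBXW7, which targets cyclin E, fell 2.64-fold (log2 difference -1.40 ± 0.21 SE, adjusted p = 3.14e-04). SKP2, which targets p27, fell 1.51-fold, and the shared ligase subunits SKP1 and RBX1 fell 1.48-fold and 1.70-fold. AMBRA1, which directs the degradation of D cyclins, rose 2.05-fold and the scaffold CUL3 1.50-fold. 

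Of 9 regulators of CDK2, CDK4 and CDK6, 1 fell and 3 rose (median log2 difference -0.17). All 9 lay above background, and the 44.4% of them that passed is near the 39.2% of all such genes (22.0% lower and 17.2% higher). The activating phosphatase CDC25B fell 2.81-fold. CDK7 and CCNH, 2 parts of the CDK-activating kinase, rose 1.44-fold and 1.74-fold, and the inhibitory kinase WEE1 1.36-fold. The third part of that complex, MNAT1, had a log2 difference of -0.42 and did not pass. In place of 4 genes, 2 of the list passed without CX-4945 replicate 1, and likewise without each of the 3 DMSO replicates.

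Of 29 E2F target genes of S phase, 11 fell, 2 rose and 16 did not pass, with a median log2 difference of -0.38. All 29 lay above background, and the 44.8% of them that passed is near the 39.2% of all such genes. By direction, those genes were 22.0% lower and 17.2% higher, whereas most of the calls in this list were falls. PRIM1, a subunit of DNA primase, fell 6.19-fold (log2 difference -2.63 ± 0.18 SE, adjusted p = 5.19e-07), and RRM2, a subunit of ribonucleotide reductase, 3.76-fold. RRM1, its partner subunit, fell 1.88-fold, cyclin A2 (CCNA2) 1.94-fold and the helicase subunit MCM3 1.98-fold. The loading factor CDC6 rose 1.38-fold and the clamp loader subunit RFC4 1.31-fold. PCNA (log2 difference -0.04), FEN1 (0.02) and TK1 (0.08) were near 0 and did not pass. Without DMSO replicate 2, 6 of the 29 passed.

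Cyclins outside G1 went both ways, with 8 lower and 6 higher of 19 measured (median log2 difference -0.13). That is 73.7% of the list, 16 of whose genes lay above background, against 39.2% of all such genes (22.0% lower and 17.2% higher). Lower were CCNB3 (4.18-fold), CCNF (3.46-fold), the mediator cyclin CCNC (1.84-fold), the mitotic cyclin CCNB1 (1.87-fold) and CCNJ (1.58-fold). The log2 level of CCNB3 with CX-4945, 6.49, was close to background. Higher were the splicing-linked cyclins CCNL1 (3.27-fold) and CCNL2 (2.03-fold), the elongation cyclins CCNT1 (2.74-fold) and CCNT2 (2.39-fold) and CCNG2 (3.05-fold). Among 16 other cyclin-dependent kinases, 6 were lower and 5 higher (median log2 difference 0.06). These make 68.8% of that list, 15 of whose genes lay above background, against the same 39.2%. CDK5, best known in neurons, fell 9.68-fold (log2 difference -3.27 ± 0.16 SE, adjusted p = 4.99e-08). CDK15 fell to below background with CX-4945 and was at least 37.6-fold lower, CDK20 fell 2.84-fold and CDK14 2.51-fold, and CDK18 lay below background in both groups. CDK11A rose 3.57-fold and CDK11B 1.89-fold, but these near-identical neighbours may share signal. CDK17 rose 3.24-fold, CDK9, the partner of CCNT1 and CCNT2, 1.74-fold, and CDK13 1.45-fold.

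Of 14 transcription factors known to act on D cyclins or p27, 6 rose and 2 fell (median log2 difference 0.37). EGR1 had a log2 difference of 5.21 and JUN one of 4.05, though the log2 level of JUN with DMSO, 6.57, was close to background. FOSL1, below background with DMSO, rose at least 3.33-fold. JUN and FOSL1 are AP-1 subunits. ETS2 rose 3.91-fold and KLF6 2.03-fold. Of the FOXO factors, known activators of p27, FOXO1 rose by a log2 difference of 0.68 (adjusted p = 0.0239), FOXO3 had a log2 difference of 0.17 and did not pass, and FOXO4 lay below background in both groups. LEF1, a partner of beta-catenin, fell 2.16-fold, and SP1 1.38-fold. MYC had a log2 difference of 0.56 and did not pass (adjusted p = 0.0659). Over the 8 lists together, 39 of 117 genes fell and 25 rose, which is 54.7%, with a median log2 difference of -0.25. Of all genes above background 39.2% passed, with 22.0% lower and 17.2% higher.

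**Figure D5:**
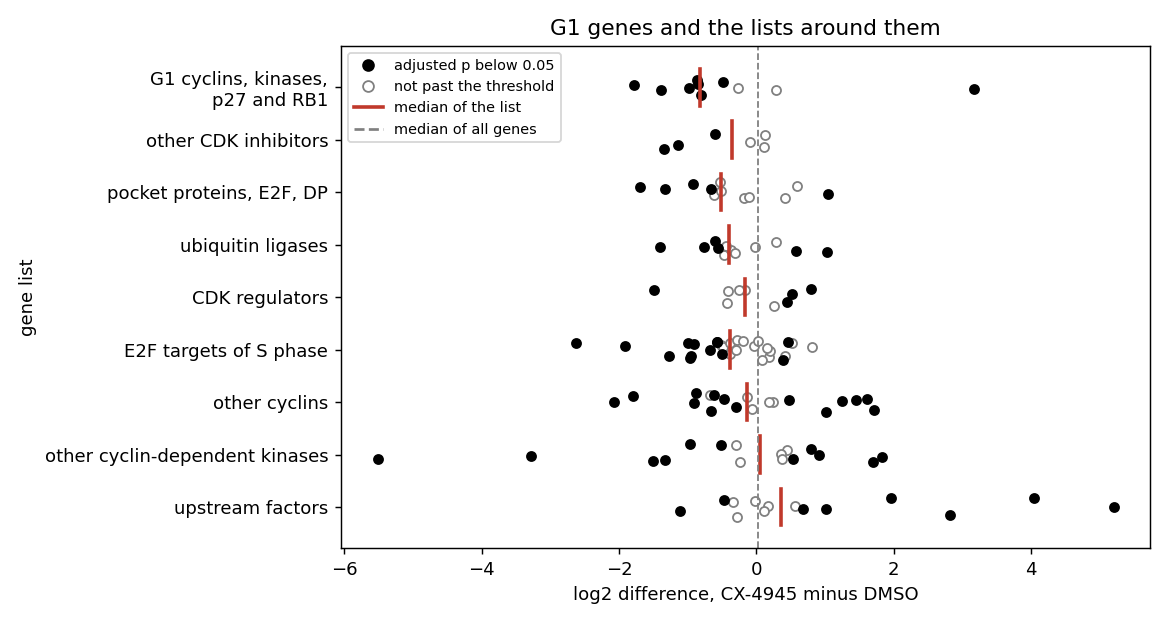
Log2 difference, CX-4945 minus DMSO, of each gene in the G1 group and in 8 lists of genes around it (vertical scatter carries no meaning). Filled circles passed an adjusted p of 0.05, red bars are list medians and the dashed line is the median of all genes at 0.02. The G1 group has a median of -0.82 with CCND1 far to the right.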

How the data were processed

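RNA of H295R cells was measured on 6 arrays, 3 with CX-4945 and 3 with DMSO, grouped by the sample titles. The deposited file holds linear intensities, made with Affymetrix Expression Console per the submitters' processing notes. The program's version, its normalization and background steps and the build were not given in the sources used here, and folds are on the authors' scale. The log2 of each value was taken with no pseudocount or scaling. The platform's annotation gave 36176 of 135750 rows 1 symbol, 1119 several and 98455 none, and the brightest row stood for each of 33616 genes.

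The comparison used limma 3.58.1 in R 4.3.3 (lmFit, then eBayes with an intensity trend), with two-sided p-values adjusted by Benjamini-Hochberg across the 33616 genes and called under 0.05. Intervals are 95% intervals of that fit. The number of arrays limits the precision. Pairs of related genes were compared within arrays by exact permutation. No filter on dim genes was used, so all 10 genes entered the test. Members and lists were chosen with earlier results of these data known. Genes named from a list are up to 5 rises and 5 falls with the smallest adjusted p, members of lists of 7 or fewer, and some others (FOXO1 and genes that did not pass), picked after their values were seen. Promoter windows are RefSeq's, build GRCh38.p14. Scan dates were not used here, and no batch was tested. Same-numbered arrays of the 2 groups deviated together at r = 0.127, 0.164 and -0.0105, and differently numbered ones at -0.228 to 0.112. These values do not settle whether the numbers pair the arrays, and no pairing was used in the main fit. The alternatives were 2 other scalings, no intensity trend, no moderation, array weights, 2 filters on dim genes, averaging a gene's rows, testing all rows, a replicate block, a fold threshold and leaving out each array. Plots were drawn with matplotlib 3.10.9.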

Additional observations from a re-analysis of the deposited data

How the results depend on the processing

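CCND1, CCND2, CCNE1 and CDKN1B passed in every alternative that tested them, and no difference of the 10 genes changed direction in any. The number of the 10 genes called was 8 as reported, 5 without moderation of the variance, 5 with treat against a fold of 1.2, and 6 to 9 on leaving out single arrays. Over all genes, 7665 passed as reported, 4259 without moderation, 13399 of all rows tested as rows, 5005 with treat, and 5865 to 8921 on leaving out single arrays. The lists together had 64 calls as reported, 42 with treat and 46 to 78 on leaving out single arrays. The CCNE2 call was lost without moderation (adjusted p = 0.0960), that of RB1 with treat (0.0584), that of CDK2 also without the intensity trend (0.0584), without moderation (0.0522) and with treat (0.226), and that of CDK6 also without moderation (0.231), with treat (0.0880) and among all rows (0.0736). The causes were not tested.

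Over all genes, the median log2 difference moved to -0.09 with quantile normalization and to -0.11 when array medians were made equal, against 0.02 as deposited. Rises were 33.2% and 32.4% of calls under these scalings, against 45.3% as deposited. All 10 directions and 8 calls held under both scalings, though with equal medians 8 rather than 9 of the 10 genes had groups apart. The replicate block gave 8058 calls over all genes and 8 among the 10. In deviations from the group means, 2 of 3 treated arrays correlated best with the DMSO array of their own number. Of the 5 pairs of related genes, 4 to 5 were apart over the alternatives. The number of arrays limits the precision, and the 95% intervals of CDK4 and CCND3 included 0.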
